A study of Mus musculus with 6 samples.

Results

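The cells described here are the CD48-negative HSC2 cells of mouse bone marrow that carried the most and the least Procr RNA. HSC2 is the submitters' name for a sorted fraction of haematopoietic stem cells. Procr encodes CD201, the endothelial protein C receptor, which is used as a surface marker of haematopoietic stem cells. The library mixed the CD201-positive and the CD201-negative gate of CD48-negative HSC2, and no label ties a cell to a gate. The members were chosen by a measured value: the 86 cells were ranked by their deposited Procr score, and the 25 highest (Procr-high) were set against the 25 lowest (Procr-low), ties by column order. These 50 cells were taken out of 497 in the series, and the other 36 cells of the library lay between them. The split stands in for the 2 gates, the RNA of a surface protein need not follow its protein in a single cell, and Procr itself is left out of the results.

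All cells of this library came from C57BL/6 mice of 8 weeks and were made from total RNA, 1 library for both gates, with no label that gives the number of mice. RNA of single sorted cells was copied by a modified Smart-seq2 method with enrichment of the 3' ends. HSC1 (84 cells) and HPC1 (82 cells, haematopoietic progenitor cells) are the other libraries that hold a CD201-positive CD48-negative gate, each beside CD48-positive cells of the same name. They came from C57BL/6 mice of 8 to 10 weeks, are labelled spleen and polyA RNA, and were split here in the same way. The spleen label stands beside a series title that names bone marrow. By recovered counts, 21 of the 25 Procr-low cells of HSC1 and all 25 of HPC1 had 0 Procr counts.

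Long-term haematopoietic stem cells divide rarely and replenish all blood lineages, and CD201 is among the surface proteins that enrich for them. CD48 appears on many of the progenitors that descend from them. MHC class II molecules present peptides to CD4 T cells. They are best known from B cells, dendritic cells and macrophages, and haematopoietic stem and progenitor cells can express them too. NF-kB is a family of transcription factors that inflammatory signals release from its inhibitors, and Nfkbia encodes the inhibitor IkB-alpha, itself a target of NF-kB.

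The deposited Procr scores, in SD units over all 497 cells, ran from 1.18 to 3.83 (median 1.63) in Procr-high and from -0.911 to -0.805 in Procr-low cells. The last cell inside the high group had 1.18 and the first outside it 1.02, and at the low edge the values were -0.805 and -0.803. Counts recovered from the scores gave 1 to 28 Procr counts (median 8) in each Procr-high cell and 0 in every Procr-low cell. In all, 39 cells of the library had 0 Procr counts, so the low group holds 25 of these and 14 lie between the groups. The order among cells with 0 counts was set by the cell covariates that the authors' scaling had removed, and not by Procr.

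Depth differed between the groups. Procr-high cells held 2386 to 114116 counts (median 28799, sum 846082), the 36 cells between them had a median of 31049, and Procr-low cells held 4586 to 41394 (median 11987, sum 392546). The 14 cells with 0 Procr counts that fell between the groups had a median of 39154. Levels are therefore given as counts per 1000000 (CPM), summed over the cells of a group, with exact 95% Poisson intervals that cover counting error only. A count of 0 allows up to 3 counts, or 3.55 CPM in Procr-high and 7.64 CPM in Procr-low cells. Ratios are log2 of Procr-high over Procr-low after adding 10 CPM to both. Both groups are cells of 1 library, so there is no replicate and no test, and every difference below describes these cells. Cell numbers in the column names ran up to 48 for 22 of the 25 Procr-high, 14 of the 36 intermediate and 10 of the 25 Procr-low cells. In the same split of the HSC1 library this held for 22 of 25 Procr-high and 9 of 25 Procr-low cells. In HPC1 it held for 25 and 10 cells. The labels tie no number to a gate or plate, and the part of this in the results was not tested.

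**Figure D1:**
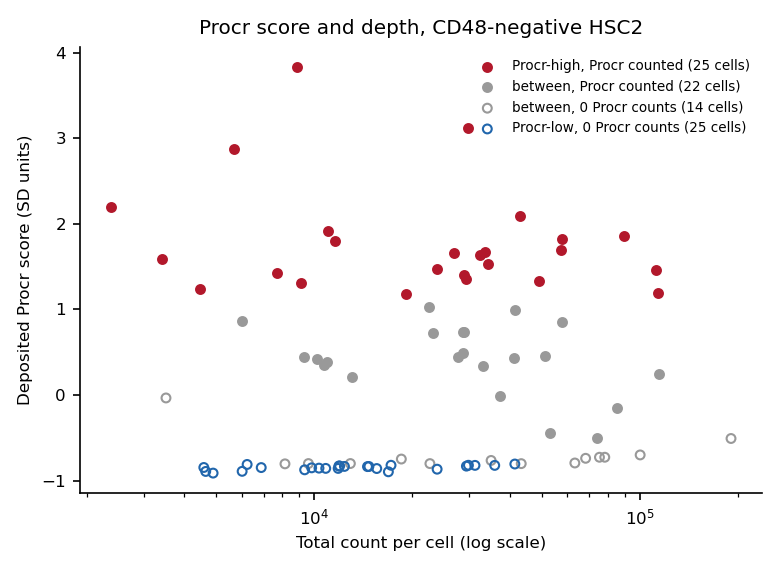
Deposited Procr score (vertical axis, SD units) against the total count of each of the 86 cells (horizontal axis, log scale), with filled points for cells with a Procr count and open points for cells with 0. The 25 Procr-low cells are all open points with at most 41394 counts, while 14 open points of mostly deeper cells lie between the groups.

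The labels were checked against marker genes. Cd48 was counted in 0 of 25 Procr-high, 1 of 36 intermediate and 2 of 25 Procr-low cells. Slamf1, which encodes the stem cell marker CD150, had 0 counts in all 86 cells, while Kit, the receptor for stem cell factor, was counted in 17, 31 and 20 cells of the 3 groups and Ly6a, which encodes Sca-1, in 23, 31 and 23. Markers of mature cells summed to low levels in both groups: 96.9 and 107 CPM for 9 mature neutrophil genes, 63.8 and 160 CPM for 9 macrophage-monocyte genes, 37.8 and 43.3 CPM for the 4 recovered mature B cell genes, and 5.91 and 45.9 CPM for the 4 recovered T cell genes, Procr-high before Procr-low. Mature erythroid markers (7 genes) summed to 430 and 566 CPM, endothelial markers (9), some of which stem cells share, to 299 and 308 CPM, stromal markers (5) to 13 and 10.2 CPM, and NK cell markers (2) to 3.55 and 0 CPM. Mast cell-basophil genes (4 recovered) had 0 counts in both groups. One intermediate cell held 96.3% of that group's neutrophil marker counts, and it belongs to neither group compared. The compared groups also held marker-rich cells. One Procr-low cell held 58.7% of its group's macrophage-monocyte marker counts, at 3572 CPM. For mature erythroid markers, 1 Procr-high cell held 75% and 1 Procr-low cell 40.5% of the counts of its group.

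Of 12250 recovered genes other than Procr, 1084 (8.85%) were at least 2-fold higher in Procr-high cells and 1128 (9.21%) at least 2-fold lower. The split was close to even, and most of these genes were sparse. Among the 4147 genes counted in at least 25% of the cells of 1 group, after every cell was thinned to 10000 counts, 327 (7.89%) were higher and 306 (7.38%) lower. A ratio above 0 was found for 43.6% of all recovered genes (5339, against 5382 below 0 and the rest at 0). Of these more widely counted ones, 49% had a ratio above 0. Thinning left 18 Procr-high, 31 intermediate and 17 Procr-low cells.

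The MHC class II genes stood higher in Procr-high cells. All 9 listed members were recovered, 4 were at least 2-fold higher and 0 lower, against 8.85% and 9.21% of all genes, and their median log2 ratio was 0.92 against 0.00 over all genes. Summed over the list, the level was 1767 CPM in Procr-high, 783 CPM in intermediate and 746 CPM in Procr-low cells, so that the intermediate cells resembled the low group in this sum. The sequences that bear on this group are the promoters of 2 of its members, shown with an inverted CCAAT element of the kind known as the Y box of class II promoters. They come from RefSeq (build GRCm38.p6), run 5′ to 3′ on the gene's strand from 250 bases before to 50 after the start site, and have the match CTGATTGG in capitals. H2-Aa (minus strand) is taken from chr17:34287774-34288073 and H2-Eb1 (plus strand) from chr17:34305617-34305916.
H2-Aa: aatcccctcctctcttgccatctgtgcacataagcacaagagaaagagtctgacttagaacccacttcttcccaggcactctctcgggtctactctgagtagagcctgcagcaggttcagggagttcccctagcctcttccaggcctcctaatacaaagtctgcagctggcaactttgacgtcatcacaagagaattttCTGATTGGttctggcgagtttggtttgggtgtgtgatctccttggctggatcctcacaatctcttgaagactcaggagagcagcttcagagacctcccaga
H2-Eb1: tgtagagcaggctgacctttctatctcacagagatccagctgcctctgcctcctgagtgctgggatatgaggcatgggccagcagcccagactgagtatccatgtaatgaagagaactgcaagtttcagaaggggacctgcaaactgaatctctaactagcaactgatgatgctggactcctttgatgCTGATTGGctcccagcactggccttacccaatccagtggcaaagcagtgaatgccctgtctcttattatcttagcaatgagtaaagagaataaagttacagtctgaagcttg
The match begins 51 bases before the start site in H2-Aa and 62 bases before it in H2-Eb1. It occurs, on either strand, in 4.1% of the 32851 promoters of the same length, and it was also found in Plac8, a gene that was lower in Procr-high cells. The 5 patterns given here were searched on both strands in the 8 promoter windows of the 6 genes with an entry among 9 looked up, and the patterns shown were picked after the matches were seen. The others were CCAAT (37.4% of promoters), GATTGG (16.1%) and CACGTG (7.15%), besides the kappa B pattern given with Nfkbia. A further 3 longer kappa B forms were also searched and are not given here. CTGATTGG contains GATTGG and ends in the reverse complement of CCAAT. Promoters of H2-Ab1, Pecam1 and Hes1 are not shown.

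Cd74 encodes the invariant chain, which escorts class II molecules to the compartment where peptides are loaded. It was measured at 372 CPM (95% interval 332 to 416) in Procr-high, 88.3 CPM in intermediate and 45.9 CPM (27.2 to 72.5) in Procr-low cells, a log2 ratio of 2.77. Single cells ran from 0 over a median of 0 to 3175 CPM in the high group and from 0 over a median of 0 to 503 CPM in the low group. The groups overlapped, most cells of each had no Cd74 count, and the highest cells were Procr-high. After thinning, 9 of 18 Procr-high, 6 of 31 intermediate and 4 of 17 Procr-low cells kept a count. The ratio lay between 1.20 and 2.99 under the 14 alternative settings.

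The classical class II chains showed the same direction at smaller size. H2-Ab1 (chr17:34263227-34269418 on GRCm38.p6), the beta chain of I-A, was at 338 CPM (300 to 380) in Procr-high and 112 CPM (81.4 to 150) in Procr-low cells, a log2 ratio of 1.51. H2-Aa, its alpha chain, was at 233 CPM (201 to 268) and 71.3 CPM (47.4 to 103), a ratio of 1.58. H2-Eb1, the beta chain of I-E, was at 191 CPM (163 to 223) and 81.5 CPM (55.8 to 115), a ratio of 1.14. For these 3 genes the share of cells with a count did not follow the level. After thinning, H2-Aa was counted in 33.3% of Procr-high and 35.3% of Procr-low cells, H2-Ab1 in 38.9% and 41.2%, and H2-Eb1 in 27.8% and 29.4%. Among the 18 and 17 cells left after thinning, the higher level thus lay in more counts within positive cells and not in more positive cells. Few cells were positive, and 1 Procr-high cell reached 3292 CPM of H2-Ab1.

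The 3 chains were counted together in few cells. Each of H2-Aa, H2-Ab1 and H2-Eb1 had a count in 5 of 25 Procr-high, 4 of 36 intermediate and 3 of 25 Procr-low cells, and Cd74 was counted in all of these. None of the 3 was counted in 13, 21 and 14 cells. The richest Procr-high cell held 27.0% of that group's class II counts, and the sums without the richest cell of each group were 1358, 710 and 683 CPM. That Procr-high cell held 136 counts of Cd74 and 141 of H2-Ab1, the most in its group, and 168 of Nfkbia. Its HSC programme (15222 CPM) and Ltb (2521 CPM) levels were also the highest of the Procr-high cells. At least 20 counts of Cd74 and the 3 chains together were found in 8 Procr-high and 2 Procr-low cells, a limit that deeper cells pass more easily (median totals 36286 and 20084). At 1000 CPM or more of the 4 genes together there were 7 and 4 cells, and any count of them was found in 12 cells of each group. The 8 Procr-high cells held 50 of their group's 54 macrophage-monocyte marker counts, in 4 cells, and 12 of its 32 B cell marker counts, in 1 cell. They held 41.6% of all counts of the group. The 2 Procr-low cells held 37 of 63 and 4 of 17, with 10.2% of all counts. The part of such markers in the class II levels was not tested.

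The remaining class II members moved less. H2-DMb1 and H2-DMa encode the 2 chains of the peptide exchange factor DM, and their log2 ratios were 0.92 and 0.55. H2-DMa was the most widely counted member, in 21 of 25 Procr-high and 20 of 25 Procr-low cells, at 456 and 308 CPM. H2-Oa and H2-Ob, the chains of the DM inhibitor DO, had ratios of -0.52 and 0.05. Ciita, the transactivator of class II genes, had 0 counts in both groups. When each Procr-high cell was set against the cell with 0 Procr counts nearest to it in total count, the list median was 1.24. It was above 0 in each of the 14 settings (0.43 to 1.26), although those that only change the added CPM cannot turn the sign. Of 11 listed MHC class I genes, 8 were recovered, and B2m, H2-D1 and H2-K1 were not. These 8 had a median of -0.12, with 0 higher and 1 lower by 2-fold, so the main class I chains were not measured here.

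**Figure D2:**
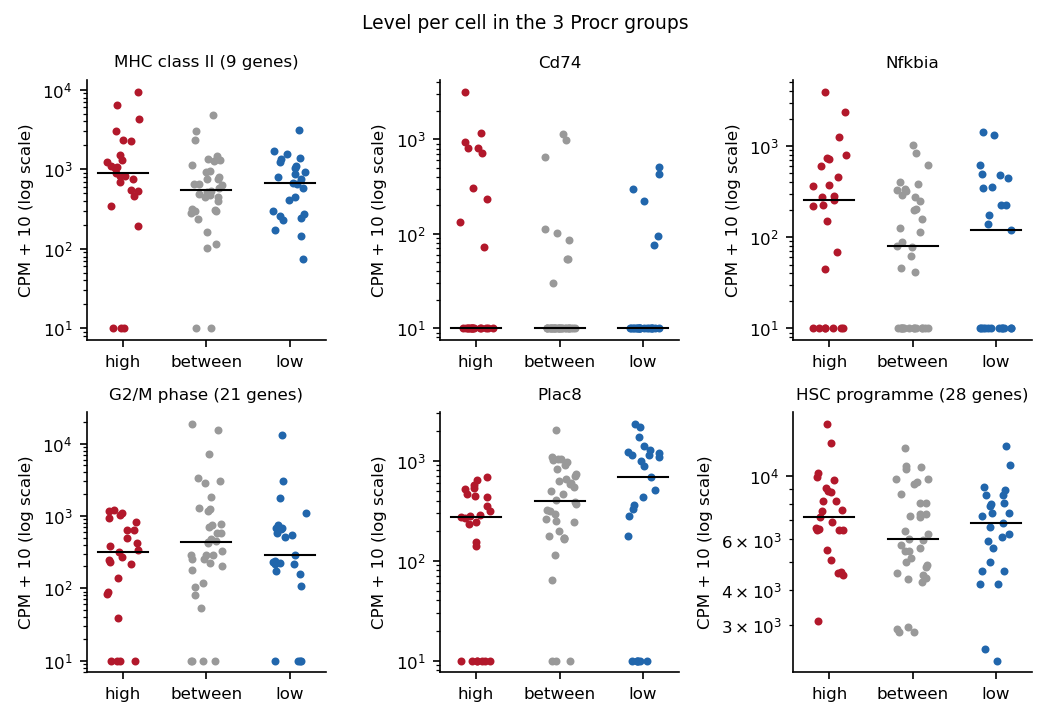
Level of each cell (vertical axis, CPM plus 10, log scale) in the 25 Procr-high, 36 intermediate and 25 Procr-low cells for 3 gene lists and 3 genes, with a line at the median and points at 10 for cells with a count of 0. The groups overlap in each panel, the highest class II, Cd74 and Nfkbia values are Procr-high cells, and the highest Plac8 values of the 2 end groups are Procr-low cells.

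Some NF-kB response genes were higher in Procr-high cells, among them Nfkbia and Relb. Of 15 recovered members, 4 were at least 2-fold higher and 0 lower, against 8.85% and 9.21% of all genes, with a median log2 ratio of 0.47. The summed level was 2081 CPM in Procr-high, 1043 CPM in intermediate and 1299 CPM in Procr-low cells. The Nfkbia promoter is shown for the kappa B element to which NF-kB binds (RefSeq, GRCm38.p6, minus strand, chr12:55492598-55492897, match in capitals).
Nfkbia: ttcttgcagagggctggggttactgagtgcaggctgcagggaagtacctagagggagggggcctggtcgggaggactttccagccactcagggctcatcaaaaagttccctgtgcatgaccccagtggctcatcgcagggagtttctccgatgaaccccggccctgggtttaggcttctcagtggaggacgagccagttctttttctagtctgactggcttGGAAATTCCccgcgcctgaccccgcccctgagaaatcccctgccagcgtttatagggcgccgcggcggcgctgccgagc
The pattern searched was GGAAATTCC on both strands, which 0.317% of promoters hold. Its match begins 29 bases before the start site of Nfkbia, and the pattern was also found in H2-DMb1.

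Nfkbia was measured at 735 CPM (679 to 795) in Procr-high, 156 CPM in intermediate and 196 CPM (155 to 245) in Procr-low cells, a log2 ratio of 1.85. Single cells ran from 0 over a median of 245 to 3922 CPM in the high group and from 0 over a median of 111 to 1426 CPM in the low group. Both groups held cells without a count, and 2 Procr-high cells gave 69.8% of their group's counts, 1 of them 42.8%. The other of the 2, with 168 counts, was the Procr-high cell richest in class II counts. Without the cell with most Nfkbia counts in each group the ratio was 1.56. Without the 2 such cells of each group it was 0.89, at 272 against 142 CPM. With matched depth it was 2.19, and over the 14 other settings it lay between 1.02 and 2.19. Relb, an NF-kB subunit, was counted in 3 of 25 Procr-high and 0 of 25 Procr-low cells, at least 4.02-fold higher. The adhesion molecule gene Icam1 and the TNF-induced gene Tnfaip2 had ratios of 1.12 and 1.11, each from 5 positive Procr-high cells. Tnfaip3 and Nfkbiz, which encode negative regulators of the pathway, had ratios of -0.40 and -0.24, so the list did not move as a block. Without the 3 deepest cells of each group its median was 0.00.

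The stem cell programme differed little across this split. Of 28 listed genes, all recovered, 3 were at least 2-fold higher and 3 lower, close to the background of 8.85% and 9.21%, and the median was 0.02. The summed level was 7899 CPM in Procr-high, 6181 CPM in intermediate and 6481 CPM in Procr-low cells. Ltb, which encodes lymphotoxin beta, was at 924 and 448 CPM, a ratio of 1.03, but its per-cell median was lower in Procr-high (328 CPM) than in Procr-low cells (499 CPM). Giving each cell the same weight brought the Ltb ratio to 0.15. The stem cell transcription factor genes Hlf and Mecom had ratios of 0.61 and 0.14, Ly6a 0.43 and Ifitm1 0.34. Hoxb5, a marker of long-term stem cells, was counted in 2 Procr-high and 0 Procr-low cells, at least 2.17-fold higher. Sult1a1, Prdm16 and Robo4 were lower, with ratios of -1.71, -1.54 and -1.47, each counted in 6 or fewer cells of either group.

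The same split gave other values for this list elsewhere. In the HSC1 library, where 10.4% of genes were 2-fold higher and 9.93% lower, 15 of the 28 genes were higher and 1 lower, with a median of 1.10. In the HPC1 library, where 7% were higher and 7.75% lower, 8 were higher and 0 lower, with a median of 0.48. Ly6a had ratios of 1.98 and 1.02 there, and Mllt3, a regulator of stem cell maintenance, 2.58 and 1.39 against -0.13 in CD48-negative HSC2. The difference between the libraries was not tested. Depth differed too. Median totals of Procr-high and Procr-low cells were 61915 and 56558 in HSC1 and 106687 and 88200 in HPC1, against 28799 and 11987 in CD48-negative HSC2. The HSC1 and HPC1 libraries also hold CD48-positive cells. CD201 and CD48 gates, labelled tissue, RNA type, age, depth and library therefore cannot be told apart in this contrast.

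**Figure D3:**
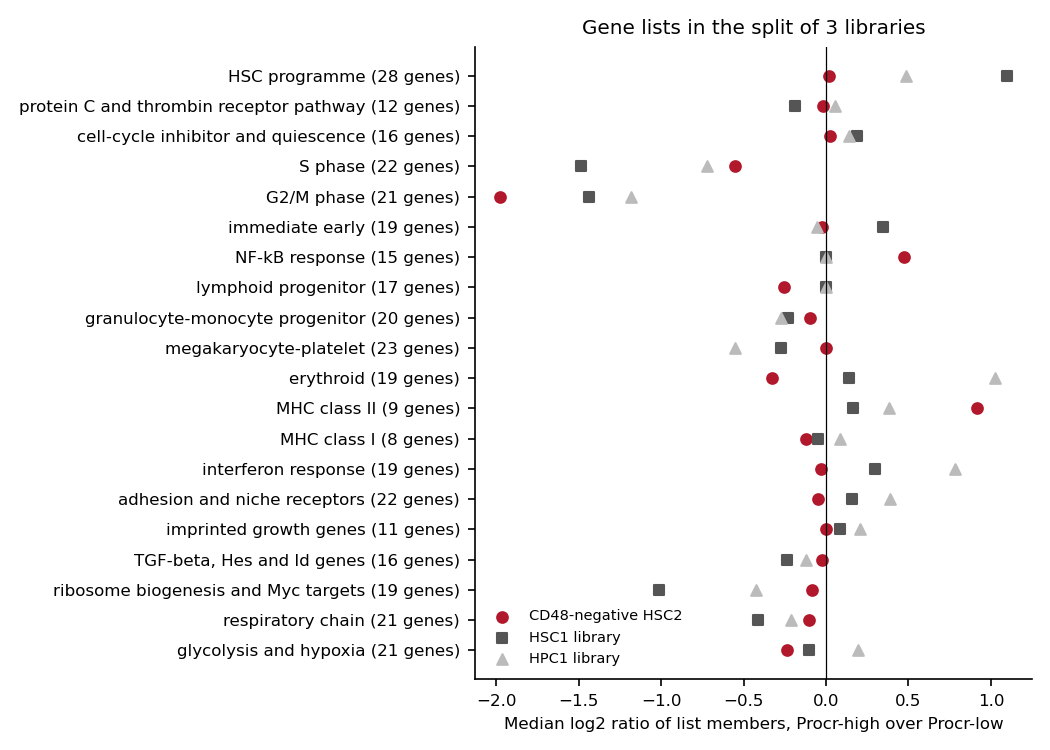
Median log2 ratio of Procr-high over Procr-low cells (horizontal axis) for each gene list with at least 5 recovered genes, in CD48-negative HSC2 (circles), HSC1 (squares) and HPC1 (triangles). MHC class II has its highest median in CD48-negative HSC2 (0.92), the HSC programme its lowest there (0.02), and G2/M genes lie below -1 in each library.

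Genes of cell division were lower in Procr-high cells, and a few cells carried the signal. Of 21 G2/M genes, which act in mitosis, 0 were 2-fold higher and 14 lower, against 8.85% and 9.21% of all genes. Their median was -1.98, or -2.34 with the 9 genes at 0 in the high group set to their bound. The sum was 436 CPM in Procr-high, 3644 CPM in intermediate and 1613 CPM in Procr-low cells, so it was highest in the middle. Levels of 2000 CPM or more were reached by 0 Procr-high, 6 intermediate and 2 Procr-low cells. One Procr-low cell held 65.1% of its group's counts. Without the richest cell of each group the sums were 389, 1525 and 612 CPM and the median was -0.58, and per-cell medians were 309, 422 and 276 CPM. The G2/M median was -1.44 in HSC1 and -1.18 in HPC1.

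Top2a, the topoisomerase that untangles replicated DNA, illustrates the pattern. It was at 11.8 CPM (5.67 to 21.7) in Procr-high, 287 CPM in intermediate and 143 CPM (108 to 185) in Procr-low cells, a ratio of -2.81. It was counted in 2, 11 and 7 cells, and 1 Procr-low cell held 67.9% of the low group's counts. Cdk1, the kinase that drives entry into mitosis, had a ratio of -2.34, and -0.95 without the highest cell of each group. S-phase genes, which serve DNA replication, had a median of -0.55 with 0 of 22 higher and 4 lower (Cdt1, Mcm4, Pclaf and Rrm2). Without each gene's highest cell it was -0.22, and over the settings it ran from -1.06 to -0.08. The S-phase median was -1.49 in HSC1 and -0.72 in HPC1. The list of cell-cycle inhibitors and quiescence genes had a median of 0.02, with 0 of 16 higher and 3 lower, among them Cdkn1a (-1.21), whose ratio was 0.28 on the scale of mean log2(CPM + 10).

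Among lineage genes, Plac8, expressed in myeloid and lymphoid progenitors, had levels that stepped down from Procr-low over intermediate to Procr-high cells. It was at 275 CPM (241 to 313) in Procr-high, 512 CPM in intermediate and 874 CPM (784 to 971) in Procr-low cells, a ratio of -1.63. Single cells ran from 0 over a median of 261 to 676 CPM in the high group and from 0 over a median of 671 to 2317 CPM in the low group. The groups overlapped, yet no single cell gave more than 13.3% of the counts of either. The ratio was -0.87 with matched depth, the smallest of the 14 settings, and it was -2.39 in HSC1 and -0.42 in HPC1.

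The granulocyte-monocyte list, Plac8 included, had a median of -0.09, with 0 of 20 higher and 4 lower (8.85% and 9.21% over all genes). Among the 4, Mpo, which encodes the granule enzyme myeloperoxidase, had a ratio of -2.58, although it was counted in 5 Procr-high and 4 Procr-low cells. Irf8, a transcription factor gene of monocytes and dendritic cells, and Cd48 were at 0 in Procr-high cells and at least 9.34-fold and 7.18-fold lower there, from 3 and 2 positive Procr-low cells. Lymphoid genes had a median of -0.26, with 1 of 17 higher (Dntt) and 2 lower (Ighm and Tespa1, an adaptor of lymphocyte receptor signalling, at -1.83). Flt3, the receptor of lymphoid-primed progenitors, had -0.48.

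Megakaryocyte genes had a median of 0.00, with 3 of 23 higher and 2 lower, against 8.85% and 9.21% of all genes. Pf4, a platelet chemokine gene, had a ratio of 2.13 from 5 Procr-high and 3 Procr-low cells, and 0.36 with matched depth. Erythroid genes had a median of -0.33, with 0 of 19 higher and 8 lower (8.85% and 9.21% over all genes), 3 of them haemoglobin genes, and counts of the alpha-globin pair Hba-a1 and Hba-a2, nearly the same in sequence, are uncertain for either gene alone. For Hba-a1, 1 Procr-low cell held 95.7% of the group's counts, and without the highest cells its ratio was 1.06 in place of -1.59. Without each gene's highest cell the erythroid median was 0.00.

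Surface receptors and signalling genes changed singly. Kit was at 125 CPM (103 to 152) in Procr-high, 188 CPM in intermediate and 262 CPM (214 to 318) in Procr-low cells, a ratio of -1.01, which lay between -1.20 and -0.61 over the settings. Pecam1, which encodes the adhesion molecule CD31, was at 68.6 CPM (52.1 to 88.6), 20.8 CPM and 15.3 CPM (5.61 to 33.3), a ratio of 1.64, with 1.75 in HSC1 and 0.95 in HPC1. Most cells of each group had no Pecam1 count, and the Procr-high cell with the most held 23 counts. The list of adhesion and niche receptors had a median of -0.05, with 2 of 22 higher and 2 lower. Over all genes, 8.85% were higher and 9.21% lower. Genes of the protein C and thrombin receptor pathway, in which CD201 acts, had a median of -0.02, with 0 of 12 higher and 1 lower (Tfpi). Thbd, which encodes the partner thrombomodulin, had 0 counts in both groups, and F2r, the thrombin receptor gene, had a ratio of -0.06.

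Stress and interferon genes gave medians near 0. For the counts below, 8.85% of all genes were 2-fold higher and 9.21% lower. Immediate early genes, which respond to stimulation and to cell handling within minutes, had -0.02, with 1 of 19 higher (Atf3) and 1 lower (Ier3, -1.91). Ier3 was at 35.5 CPM in Procr-high, 146 CPM in intermediate and 160 CPM in Procr-low cells. Interferon response genes had -0.03, with 0 of 19 higher and 2 lower, Isg15 (-1.60) and Ifit1 (-1.49). Respiratory chain (-0.10), glycolysis and hypoxia (-0.24), and ribosome biogenesis and Myc target genes (-0.09) had at most 1 member in either direction past 2-fold. The ribosome list had -1.01 in HSC1 and -0.43 in HPC1. Imprinted growth genes had a median of 0.00 (0 of 11 higher, 1 lower) and the TGF-beta, Hes and Id genes -0.02 (1 of 16 higher, 2 lower). Only 1 of 32 cytosolic ribosomal protein genes was recovered, so that list is not described.

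The most different single genes were named by a fixed rule from 2808 genes that qualified. The 12 highest were Stambpl1, Cd74, Zc3h14, Rufy2, Tigd2, Arfgef1, Ncf1, Mrpl32, Ngrn, Hes1, Tada3 and Ercc6l2. The 12 lowest were Marcks, Aifm1, Top2a, Hirip3, Spr, Fam181b, Cdk1, Mkl1, Mark3, Saal1, Dus1l and Tmem184b. The level in the intermediate cells lay between the 2 groups for 21 of the 24, the exceptions being Hes1, Top2a and Cdk1. Genes chosen for distant ends leave more room between them, and the same held for 69.2% of the 2212 genes past 2-fold in either direction and for 32.3% of all genes, so nothing is read from this count.

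Stambpl1 encodes a deubiquitinase. It was at 81.6 CPM (63.5 to 103) in Procr-high, 51.9 CPM in intermediate and 2.55 CPM (0.0645 to 14.2) in Procr-low cells, counted in 12, 11 and 1 cells. Ncf1 encodes a cytosolic subunit of the phagocyte NADPH oxidase, and was at 79.2, 30.5 and 5.09 CPM, counted in 8, 4 and 1 cells. Hes1, a transcriptional repressor gene activated by Notch signalling, was at 200 CPM (171 to 232), 279 CPM and 28 CPM (14 to 50.1), counted in 12, 18 and 3 cells. Its ratio of 2.46 was 0.24 with matched depth, and -0.22 when all cells with 0 Procr counts formed the low group.

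Among the lower genes, Marcks, which encodes a membrane-bound substrate of protein kinase C, was counted in 0 Procr-high, 5 intermediate and 7 Procr-low cells. It stood at 68.8 CPM (45.3 to 100.1) in the low group, at least 19.4-fold above the high group. Aifm1, which encodes a mitochondrial flavoprotein that takes part in respiration and cell death, was at 8.27 CPM (3.33 to 17.0), 67.5 CPM and 122 CPM (90.2 to 162), a ratio of -2.86. It was counted after thinning in 5.56% of Procr-high, 22.6% of intermediate and 52.9% of Procr-low cells. With matched depth its ratio was -2.91.

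**Figure D4:**
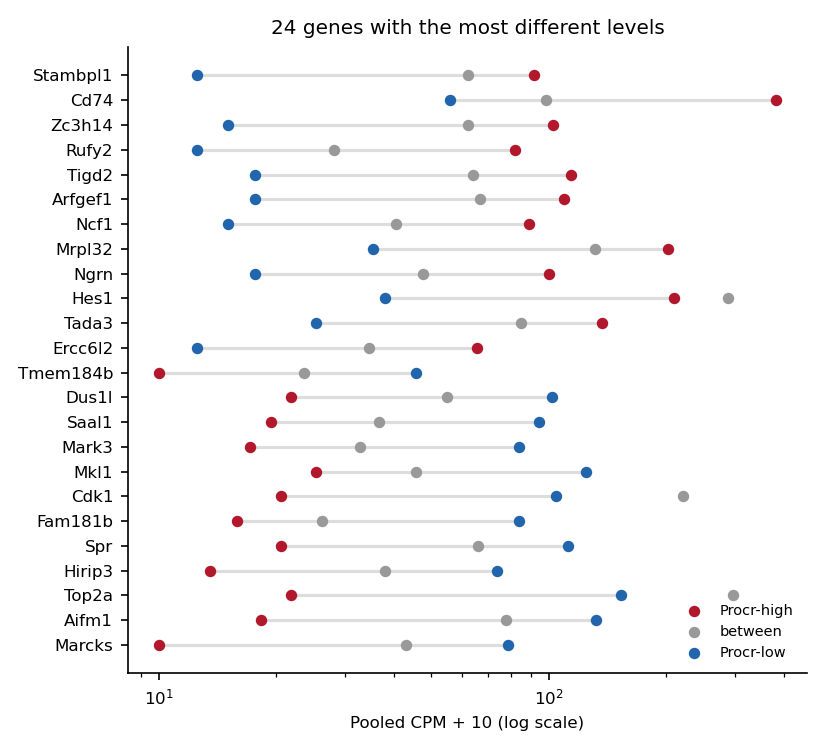
Summed level (horizontal axis, CPM plus 10, log scale) of the 24 named genes in Procr-high, intermediate and Procr-low cells, ordered by their log2 ratio. The genes were chosen for the distance between the end groups, and Hes1, Top2a and Cdk1 were highest in the intermediate cells.

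The direction of these genes was compared with the HSC1 and HPC1 libraries, whose cells had no part in naming them. In HSC1, 5 of the 12 higher genes had a ratio above 0 and 8 of the 12 lower genes one below 0. In HPC1 the counts were 9 of 12 and 7 of 12. Over the 4147 more widely counted genes, 46.6% in HSC1 and 46.2% in HPC1 had a ratio above 0. Cd74 kept its direction in both, with 1.39 (116 against 38.1 CPM) and 2.21 (196 against 34.7 CPM). H2-Aa had 1.65 and 1.42, H2-Ab1 -0.00 and 0.38, and H2-Eb1 -0.76 and 2.95, and the class II list had medians of 0.16 and 0.38. Stambpl1 had 0.12 and -0.31, Ncf1 -0.60 and 0.59, Marcks 0.83 and 0.34, and Aifm1 -0.02 and -1.33.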

How the data were processed

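Single-cell RNA was sequenced in 6 libraries, 1 per group. The submitters' processing notes name TopHat, HTSeq and the build mm10. Versions, cell filter, normalization and use of molecular identifiers were not stated in the sources used. The values the authors deposited are scores, scaled per gene to mean 0 and SD 1 over 497 cells in 3 tables and capped at 10. The table of this library has no gene names, and its rows follow those of the named table: 9901 uncapped genes had a joint mean within 1.15e-10 of 0, against a median distance of 0.0333 for rows shifted by 1.

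Counts were recovered by undoing the regression on an intercept and the covariates, which together span 3 dimensions, with a scale factor of 10000 assumed. Of 13278 genes, 12251 were recovered with Procr and 132 had no plane of cells at 0. The other 895 had too few detecting cells or no scale that made their counts whole. All of 2010392 values up to 50 in the recovered genes were whole within 0.01, after each cell's total was rounded to a whole number. Nearly whole counts were also a condition for keeping a gene. In this library 55.7 to 81.4% (median 63.6%) of each cell's counts lay in recovered genes. Those left out include genes found in nearly every cell. The procedure was tested on simulated data. No cell was filtered and no doublet was called. No cell name is shared between libraries.

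Named genes are the 12 highest and 12 lowest log2 ratios among genes counted in at least 25% of the cells of 1 group after thinning to 10000 counts, whose share of cells goes the same way and whose sign holds without each gene's highest cell in each group. Procr and predicted, Rik, mitochondrial and ribosomal protein symbols were left out. Of 457 entries in 21 gene lists and 9 marker lists, 384 were recovered. The groups, members and lists were chosen with earlier results of these data known. With 1 library there are no p-values. Other weights of cells, depths, added CPM, filters, group sizes and rankings were tried. Python 3.11.15, numpy 2.4.6, scipy 1.17.1 and pandas 2.3.3 were used.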

Additional observations from a re-analysis of the deposited data

How the results depend on the processing

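The counts of genes past 2-fold depended most on how low values were treated. In place of 1084 higher and 1128 lower genes, adding 1 CPM gave 2452 and 2257, adding 50 CPM gave 63 and 78, the difference of mean log2(CPM + 10) over cells gave 323 and 102, and keeping only genes counted in at least 25% of the cells of 1 group gave 327 and 306. Ranking by recovered Procr CPM, with all cells of 0 Procr counts as the low group, gave 721 higher genes, and turned Hes1 to -0.22. Every other log2 ratio of the named genes kept its sign, which the naming rule fixes for the setting without the highest cells. Adding 1 or 50 CPM cannot change a sign either, and the named genes already met the 25% filter. The named genes with an intermediate level numbered 15 to 21, and those with the same sign 12 to 16 in HSC1 and 16 to 19 in HPC1. The MHC class II and G2/M medians kept their sign in every setting, which a change of the added CPM cannot alter. The G2/M median ranged from -3.28 to -0.32. With 30 against 30 cells, the neutrophil-rich intermediate cell joined the high group and the median of the neutrophil markers was 5.85. The deposited scores have no fold scale, so no gene count was made from them. Leaving out the cell with the most G2/M counts in each group was chosen after seeing the data, as was leaving out the 1 or 2 cells with most counts of a gene. The latter moved Nfkbia to 0.89, while Cd74 was at 2.70, Plac8 at -1.67 and the class II median at 0.77 without the 2 cells. Depth limits genes under about 10 CPM, and 25 cells of 1 library give no error between animals. No paired analysis was possible because both groups are cells of 1 library and the libraries carry no replicate numbers.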
